A study of Mus musculus with 16 samples.

Results

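The 45 mouse genes examined here encode the chaperones of the cytosol, proteins that fold and refold other proteins, together with the heat shock factors that switch many of them on. They were listed by symbol and found through the Ensembl identifier of each row. Of the 45, 44 had a row among the 41388 genes of each file, and 43 passed the filter on low counts among 15103 genes tested. Hspa14 was not analysed here because its identifier could not be matched to a row, and Hspb1 had a row but too few counts to pass. By family the list held 2 heat shock factors, 5 HSP70 genes, 2 HSPA12 genes, 3 HSP110 genes, 2 HSP90 genes, 5 HSP90 co-chaperones, 3 small heat shock proteins, 10 J-domain proteins, 5 BAG and ubiquilin genes and the 8 subunits of the chaperonin TRiC.

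RNA was sequenced from cortical neurons of Swiss Webster mouse embryos (E16), after removal of ribosomal RNA with Ribo-Zero. Each culture received 2 lentiviruses on day 5 in vitro, one expressing exon 1 of huntingtin (Htt) and one expressing a hairpin RNA (shRNA), and cells were harvested on day 10. The groups were 72Q with Twist1 shRNA 1, 72Q with Twist1 shRNA 2, 72Q with luciferase shRNA (72Q control) and 25Q with luciferase shRNA (25Q control), with n = 4 libraries each. The numbers 25 and 72 are the glutamines in the Htt tract, 72 being in the range of Huntington disease, so all groups carried extra Htt exon 1 and a hairpin. The sources used here do not name the promoters of the viruses or the share of cells transduced. There were 4 experiments, labelled exp107, exp108, exp109a and exp109b, and every group had 1 library in each. Values per library are given in that order of experiments, in CPM, which are counts scaled to the library total and by TMM factors.

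HSP70 proteins bind short hydrophobic stretches of unfolded chains in cycles of ATP hydrolysis. J-domain proteins start the cycle, HSP110 and BAG proteins release the nucleotide, HSP90 and its co-chaperones finish kinases and receptors, small heat shock proteins hold unfolded chains without ATP, and TRiC encloses actin, tubulin and other chains in a double ring. HSF1 induces many of these genes through heat shock elements, inverted repeats of the letters GAA, and several members, among them Dnajb1, Dnajb6, Dnajb2, Hspa4l and TRiC, are known as modifiers of polyglutamine aggregation in model systems. Twist1, the target of the hairpins, is a basic helix-loop-helix transcription factor that binds E-boxes.

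Promoter windows of RefSeq starts, 250 bases before to 50 after each start on GRCm38.p6, were matched for 36 of 45 members. The motifs were read on both strands, and a 3-unit element (3 alternating GAA or TTC units, each 2 bases apart) always contains the shorter repeats. The head-to-head repeat GAANNTTC was found in 12 of 36 members, against 9.04% of all 27025 genes with a window. The tail-to-tail repeat TTCNNGAA was found in 6 of 36 members, against 9.6% of all genes, and a 3-unit element in 3 of 36, against 0.662%. E-box letters CANNTG were found in 22 of 36 members, against 75.0% of all genes. The form CAGATG or CATCTG was in 4 members (Cct6a, Dnajb5, Hspa12b and Hspb1), against 19.2%. These are matches of letters, not sites shown to be bound. Stretches of 30 bases follow for the members with a 3-unit element, for Hspb1, for the paired genes Hspa1a and Hspa1b, and for 4 further members in other families. Capitals mark the letters of the elements.
Chordc1, chr9:18292260-18292289, plus strand, bases -7 to 23 from the start: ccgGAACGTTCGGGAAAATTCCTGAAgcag
Dnajb6, chr5:29735844-29735873, plus strand, bases -54 to -25 from the start: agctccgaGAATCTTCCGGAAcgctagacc
Hsph1, chr5:149636287-149636316, minus strand, bases 21 to 50 from the start: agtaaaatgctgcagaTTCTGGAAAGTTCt
Hspb1, chr5:135887801-135887830, plus strand, bases -118 to -89 from the start: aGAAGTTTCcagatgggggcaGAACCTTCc
Hspa1a, chr17:34972242-34972271, minus strand, bases -115 to -86 from the start: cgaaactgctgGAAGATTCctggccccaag
Hspa1b, chr17:34959324-34959353, minus strand, bases -115 to -86 from the start: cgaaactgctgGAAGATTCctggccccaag
Dnaja1, chr4:40722333-40722362, plus strand, bases -135 to -106 from the start: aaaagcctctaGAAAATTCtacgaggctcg
Dnaja4, chr9:54699458-54699487, plus strand, bases -101 to -72 from the start: ggaacctccgcGAACGTTCtgggcctatgt
Fkbp4, chr6:128438789-128438818, minus strand, bases -162 to -133 from the start: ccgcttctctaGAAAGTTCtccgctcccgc
Cct5, chr15:31601862-31601891, minus strand, bases -45 to -16 from the start: acagcggccgaTTCCAGAAgctactctgcg

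The Chordc1 stretch holds 3 overlapping 3-unit elements across its start, and the Dnajb6 and Hsph1 stretches hold 1 each. Hspb1 has 2 head-to-head repeats, with the E-box letters CAGATG between them in lower case. Hspa1a and Hspa1b, neighbours on chromosome 17, have identical letters in the stretch shown. Of the 11 tested members with a head-to-head repeat, 4 were called higher, 3 lower and 4 neither in 72Q over 25Q, shares near those of all genes tested, of which 29.3% were called higher and 27.8% lower.

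**Figure D1:**
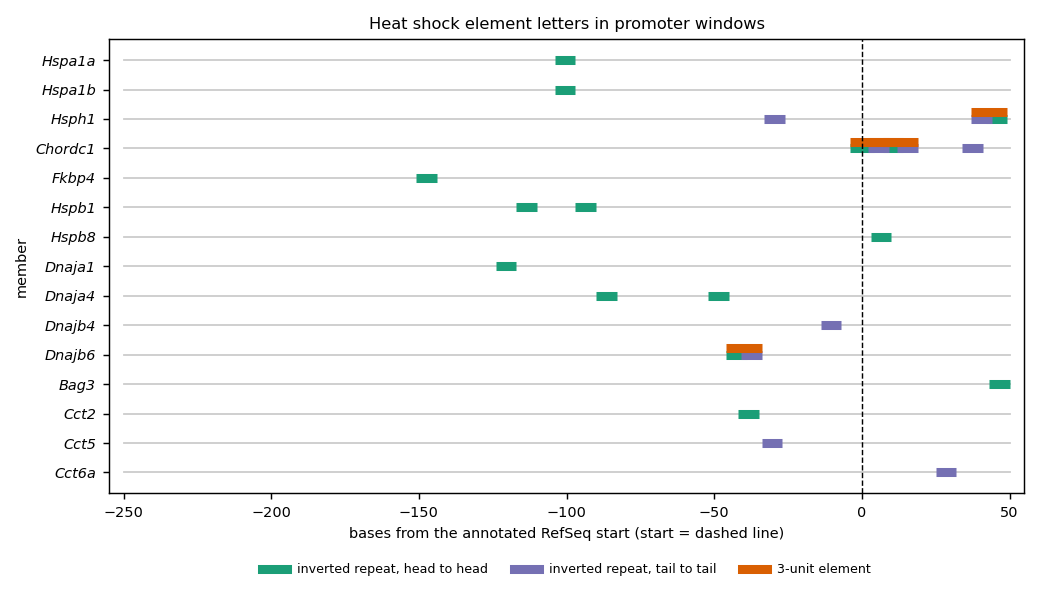
Positions of the heat shock element letters in the promoter windows of the members that hold any, in bases from the annotated RefSeq start (dashed line, x axis), with 1 member per row and 1 window per member. Green bars are head-to-head repeats, purple bars tail-to-tail repeats and orange bars 3-unit elements, which lie in Hsph1, Chordc1 and Dnajb6.

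Library totals lay between 15814525 and 19533034 counts. Twist1 itself was at 1.57 ± 0.452 CPM with shRNA 1, 1.64 ± 0.403 CPM with shRNA 2 and 4.15 ± 0.763 CPM in 72Q control neurons, against 0.271 ± 0.225 CPM in 25Q control neurons (SD, n = 4). The summed level of 10 neuron markers lay between 6470 and 7190 CPM with shRNA 1, 5800 and 6870 CPM with shRNA 2 and 5760 and 6910 CPM in 72Q control, against 8950 and 10100 CPM in 25Q control. In 72Q over 25Q control, 10 of 10 were called lower, as were 27.8% of all genes tested. The cultures also held glial transcripts: 10 astrocyte markers summed to between 2860 and 3090 CPM with shRNA 1, 2260 and 2820 CPM with shRNA 2 and 2750 and 3120 CPM in 72Q control, against 2610 and 2830 CPM in 25Q control. Oligodendrocyte lineage markers summed to 938 to 1080 CPM with shRNA 1, 792 to 965 CPM with shRNA 2 and 1140 to 1330 CPM in 72Q control, against 1070 to 1240 CPM in 25Q control. Fibroblast and meningeal markers summed to 251 to 316 CPM with shRNA 1, 232 to 282 CPM with shRNA 2 and 329 to 382 CPM in 72Q control, against 354 to 418 CPM in 25Q control, most of it Pdgfra, which the oligodendrocyte list also holds. Microglial and endothelial lists summed to 30.6 CPM at most in every group, with the defining markers Cx3cr1, Tmem119, Cldn5 and Cdh5 under 0.2 CPM. Fewer cells of a type and less RNA per cell cannot be told apart in such bulk samples, and the part of cell makeup in the changes given here was not tested.

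In 72Q neurons, 6 of 10 J-domain genes and 3 of 4 HSP70 genes were higher than in 25Q neurons, led by Dnajb2, while the HSP90 co-chaperone Chordc1, the small heat shock protein Cryab, the HSP110 gene Hsph1 and the J-domain gene Dnajb5 were lower. A call means an adjusted p under 0.05 in edgeR's quasi-likelihood test with Benjamini-Hochberg adjustment over all 15103 genes, which gave every adjusted p here, and the count of experiments beside each is the number whose own pair of libraries differed in that direction. In 72Q over 25Q control, 16 of 43 members were called higher and 10 lower, where 29.3% of all genes tested were called higher and 27.8% lower. The median log2 fold change was 0.072 over the members and 0.030 over all genes. The split was 20 higher and 7 lower with upper-quartile factors and 29 higher and 5 lower with library totals alone, which moved the median of all genes to 0.16. Of all genes called, 60.7% were higher with upper-quartile factors and 69.7% with library totals alone, against 51.4% with TMM factors. Without the exp109b library of the 72Q control 10 members were called higher, and with no block for experiment 8 were called higher and 7 lower. That last setting called 6526 of all genes, against 8628 with the block. Among the HSP70 and J-domain genes called higher, Hspa1b, Hspa2, Dnaja1 and Dnaja2 lost their calls without the block. Each of them also lost its call when certain single libraries were left out.

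With Twist1 shRNA 1, the widest called change among the members was the fall of Hspa12a, followed by that of Dnajb2, and 4 of 8 TRiC subunits fell. Hsp90ab1, Dnaja1 and Cryab rose. Over the 72Q control, 9 members were called higher and 15 lower, where 22.7% of all genes tested were called higher and 23.6% lower. The split was 11 and 12 with upper-quartile factors, and the median was -0.065 over the members against -0.0054 over all genes. Of all genes called, 53.9% were higher with upper-quartile factors, against 49.1% with TMM factors. With Twist1 shRNA 2, Hspa12a fell as well, and Hsp90ab1, Hspa4l and Hspa2 rose. In that comparison 8 members were called higher and 8 lower, where 20.2% of all genes tested were called higher and 21.5% lower, and the medians were -0.020 and 0.0015. The split was 13 and 5 with upper-quartile factors and 17 and 4 with library totals alone. Of all genes called, 57.1% and 65.3% were then higher, against 48.5% with TMM factors. Leaving out the exp109a library of the 72Q control, of shRNA 2 or the exp109b library of shRNA 2 left 5, 4 and 5 members called lower. Both hairpin comparisons and the 72Q over 25Q comparison share the 72Q control libraries, so their values are given side by side only.

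**Figure D2:**
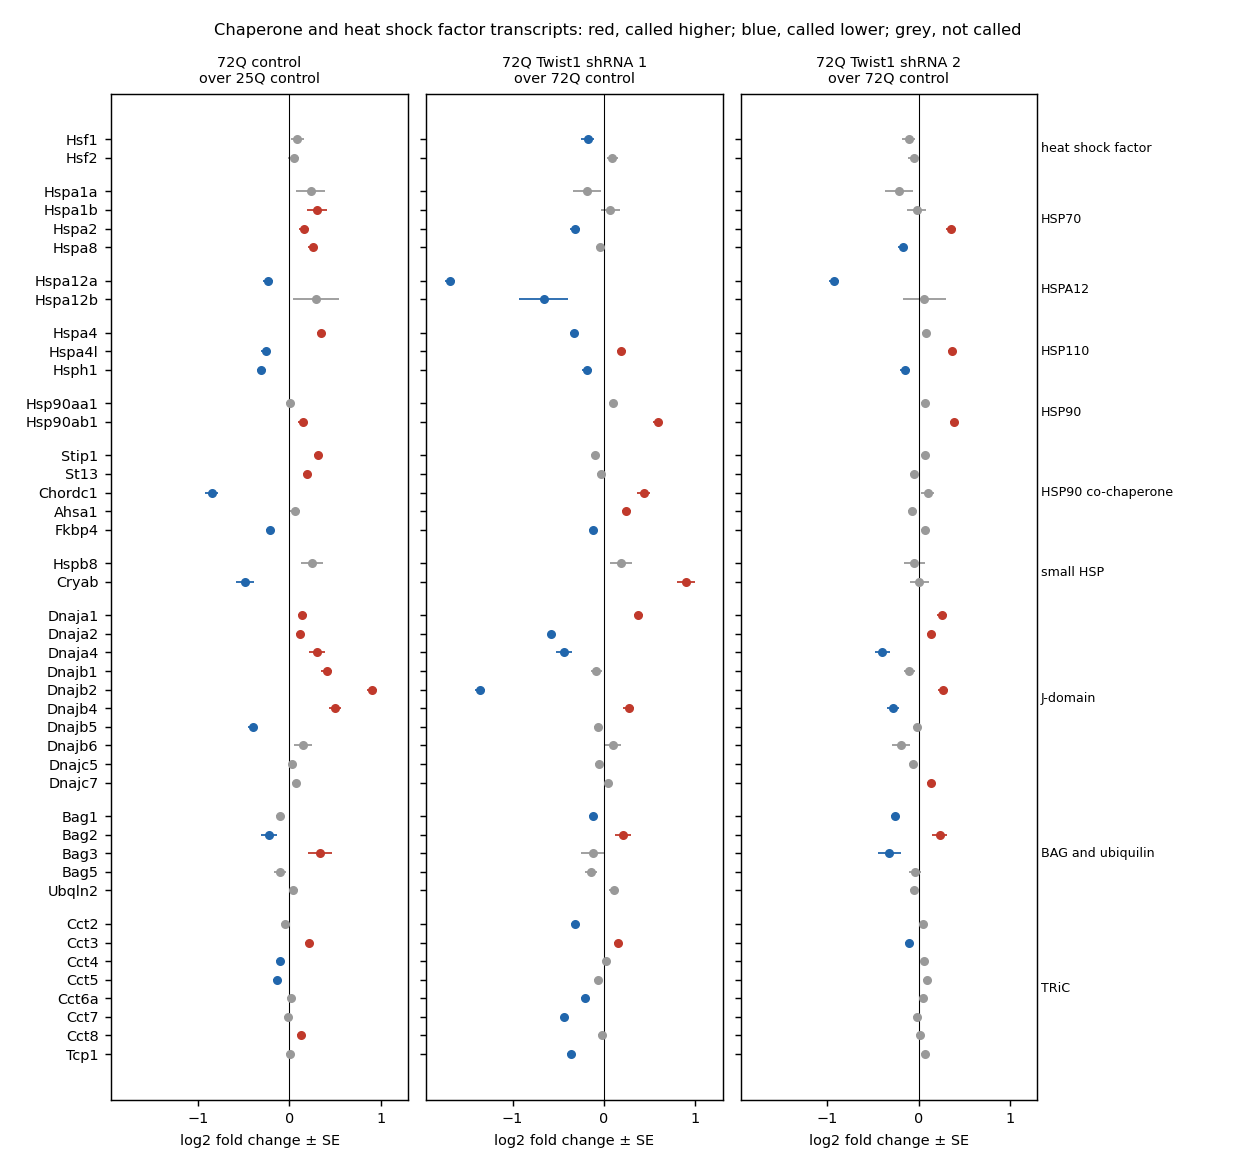
Log2 fold changes ± SE (x axis) of the 43 tested members, 1 per row and grouped by family, in 72Q control over 25Q control and in each Twist1 shRNA over the 72Q control (n = 4 libraries a group). Red points were called higher, blue points lower and grey points neither, and Hspa12a, Dnajb2, Cryab and Chordc1 are among the points farthest from the line at 0.

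The heat shock factor genes changed little. Hsf1 encodes the main stress-activated factor, whose activity is set after translation, and Hsf2 a related factor of development. Hsf1 was at 18.1, 19.8, 20.4 and 23.2 CPM with Twist1 shRNA 1 and at 19.9, 23.4, 19.6 and 22.5 CPM with Twist1 shRNA 2. With control shRNA, Hsf1 was at 21.6, 23.2, 24.1 and 23.1 CPM in 72Q neurons, against 19.5, 22.7, 20.4 and 24.0 CPM in 25Q neurons. The ranges of all groups overlapped. For Hsf1 the log2 fold change was 0.089 ± 0.069 in 72Q over 25Q (adjusted p = 0.28, 3 of 4 experiments), -0.18 ± 0.069 in shRNA 1 over the 72Q control (adjusted p = 0.0362, 3 of 4 experiments) and -0.11 ± 0.068 in shRNA 2 over the 72Q control (adjusted p = 0.203, 3 of 4 experiments). The fall with shRNA 1 was the only call of Hsf1 in these 3 comparisons. It was lost without the exp107 or exp109a library of the 72Q control or the exp107 or exp108 or exp109a library of shRNA 1, at -0.13 to -0.19, and with upper-quartile factors (-0.15), with no filter (-0.17) and in DESeq2 (-0.17).

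Hsf2 was at 34.7, 39.0, 32.3 and 34.7 CPM with Twist1 shRNA 1 and at 33.3, 34.1, 31.3 and 28.4 CPM with Twist1 shRNA 2. With control shRNA, Hsf2 was at 34.8, 35.4, 30.5 and 31.6 CPM in 72Q neurons, against 30.8, 33.1, 30.4 and 33.4 CPM in 25Q neurons. The groups overlapped here too, the exp108 library being the highest with both hairpins and in the 72Q control. For Hsf2 the log2 fold change was 0.050 ± 0.061 in 72Q over 25Q (adjusted p = 0.501, 3 of 4 experiments), 0.091 ± 0.060 in shRNA 1 over the 72Q control (adjusted p = 0.222, 3 of 4 experiments) and -0.055 ± 0.060 in shRNA 2 over the 72Q control (adjusted p = 0.497, 3 of 4 experiments). None of the 3 passed the threshold, and the 95% intervals lay within -0.18 and 0.21. Hsf2 was called higher in shRNA 1 over shRNA 2, at 0.15 ± 0.060, and in shRNA 1 over 25Q, at 0.14 ± 0.060.

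Among the 4 HSP70 genes tested, Hspa1b, Hspa2 and Hspa8 were called higher in 72Q over 25Q, each by 0.30 or less on the log2 scale. Of all genes tested, 29.3% were called higher in that comparison. Hspa1a and Hspa1b encode the strongly inducible HSP70 and are nearly identical, sharing 1716 words of 50 bases, 58.8% of those in Hspa1a and 62.3% of those in Hspa1b, so reads may be split between them and each value is uncertain. Hspa1a also overlaps the antisense gene Gm20481. Hspa1a was at 2.76, 2.61, 2.32 and 3.24 CPM with Twist1 shRNA 1 and at 2.96, 2.24, 2.29 and 3.18 CPM with Twist1 shRNA 2. With control shRNA, Hspa1a was at 3.17, 3.15, 3.00 and 3.15 CPM in 72Q neurons, against 2.95, 2.87, 2.39 and 2.29 CPM in 25Q neurons. The 72Q control libraries lay above the 25Q control libraries, while the hairpin libraries overlapped both. For Hspa1a the log2 fold change was 0.23 ± 0.16 in 72Q over 25Q (adjusted p = 0.189, 4 of 4 experiments), -0.19 ± 0.15 in shRNA 1 over the 72Q control (adjusted p = 0.319, 3 of 4 experiments) and -0.22 ± 0.15 in shRNA 2 over the 72Q control (adjusted p = 0.243, 3 of 4 experiments). The counts summed over 4 libraries were between 173 and 220.

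Hspa1b was at 9.64, 7.83, 12.7 and 10.9 CPM with Twist1 shRNA 1 and at 8.22, 6.02, 12.0 and 12.7 CPM with Twist1 shRNA 2. With control shRNA, Hspa1b was at 8.29, 6.54, 11.5 and 13.1 CPM in 72Q neurons, against 8.34, 5.62, 9.69 and 8.07 CPM in 25Q neurons. The exp108 library was the lowest of each group, and all groups overlapped. For Hspa1b the log2 fold change was 0.30 ± 0.11 in 72Q over 25Q (adjusted p = 0.0186, 3 of 4 experiments), 0.070 ± 0.10 in shRNA 1 over the 72Q control (adjusted p = 0.613, 3 of 4 experiments) and -0.023 ± 0.10 in shRNA 2 over the 72Q control (adjusted p = 0.884, 3 of 4 experiments). The call in 72Q was lost without the exp109b library of the 25Q control or the exp109b library of the 72Q control, at 0.20 and 0.21.

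Hspa8 encodes the constitutive HSP70 of neurons, which also strips clathrin from vesicles. Hspa8 was at 169, 164, 152 and 161 CPM with Twist1 shRNA 1 and at 168, 154, 127 and 141 CPM with Twist1 shRNA 2. With control shRNA, Hspa8 was at 176, 172, 155 and 162 CPM in 72Q neurons, against 153, 144, 137 and 123 CPM in 25Q neurons. Every 72Q control library lay above every 25Q control library, the exp107 library being the highest of each group. For Hspa8 the log2 fold change was 0.26 ± 0.049 in 72Q over 25Q (adjusted p = 5.3e-05, 4 of 4 experiments), -0.041 ± 0.049 in shRNA 1 over the 72Q control (adjusted p = 0.529, 4 of 4 experiments) and -0.18 ± 0.049 in shRNA 2 over the 72Q control (adjusted p = 0.00444, 4 of 4 experiments). The fall with shRNA 2 was lost without the exp109a library of shRNA 2, at -0.11, and with library totals alone (-0.10). Snord14 genes lie inside Hspa8, whose reads cannot be separated here.

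Hspa2, a testis-enriched HSP70 that the brain also expresses, fell with shRNA 1 and rose with shRNA 2. Hspa2 was at 48.3, 36.4, 40.0 and 45.3 CPM with Twist1 shRNA 1 and at 78.3, 51.0, 68.1 and 75.2 CPM with Twist1 shRNA 2. With control shRNA, Hspa2 was at 60.9, 45.8, 51.7 and 53.2 CPM in 72Q neurons, against 54.9, 42.7, 43.8 and 48.1 CPM in 25Q neurons. The libraries of shRNA 1 and shRNA 2 did not overlap, and those of the 72Q control overlapped both. For Hspa2 the log2 fold change was 0.16 ± 0.057 in 72Q over 25Q (adjusted p = 0.0184, 4 of 4 experiments), -0.32 ± 0.057 in shRNA 1 over the 72Q control (adjusted p = 3.51e-05, 4 of 4 experiments) and 0.36 ± 0.055 in shRNA 2 over the 72Q control (adjusted p = 3.8e-06, 4 of 4 experiments). Set directly against each other, the hairpins differed by -0.67 ± 0.056 in shRNA 1 over shRNA 2 (adjusted p = 2.11e-11, 4 of 4 experiments). The 72Q call was lost without the exp109a or exp109b library of the 25Q control or the exp108 library of the 72Q control, at 0.13 to 0.14.

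**Figure D3:**
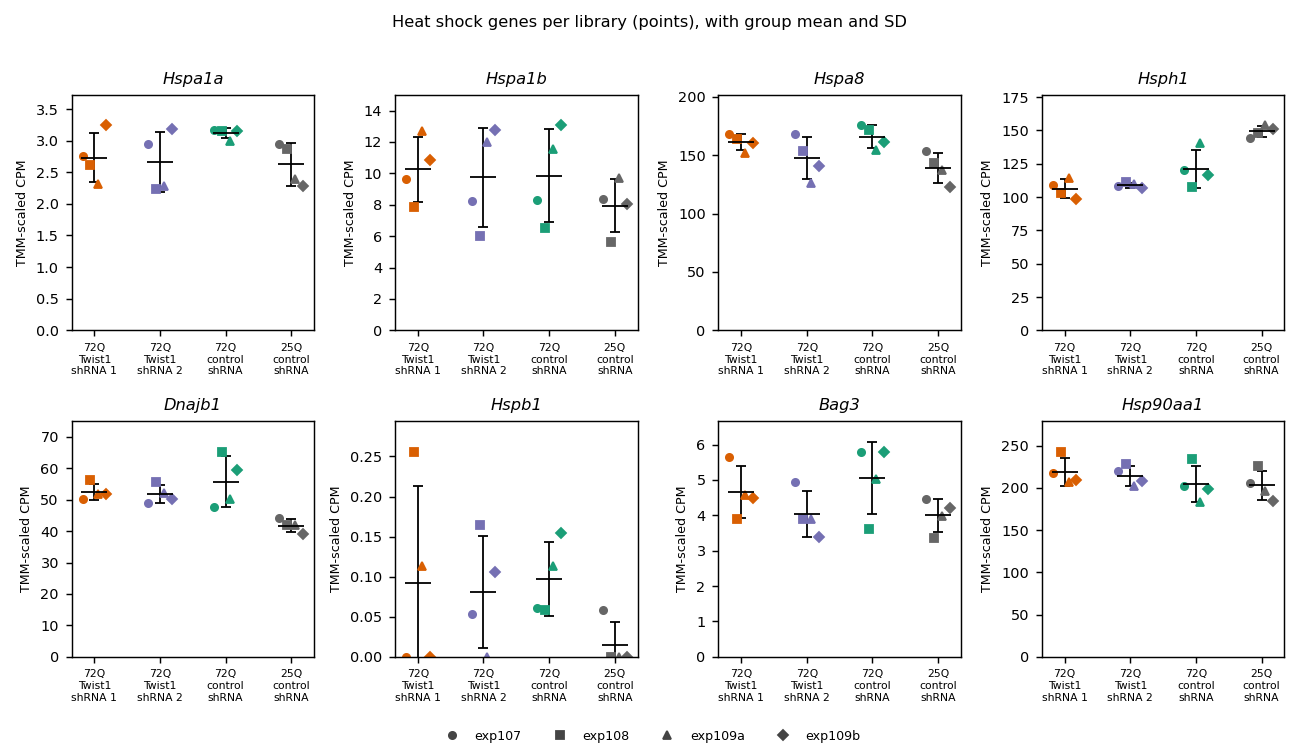
TMM-scaled CPM (y axis) of 8 heat shock genes in each library (points, shaped by experiment), with the group mean and SD (bars), for shRNA 1, shRNA 2, 72Q control and 25Q control from left to right. Dnajb1 and Hspa8 lay higher in the 72Q control than in the 25Q control and Hsph1 lay lower, while Hspb1 stayed under 0.3 CPM everywhere.

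The 2 HSPA12 genes belong to a distant branch of the HSP70 family, of which Hspa12a is known from brain and Hspa12b from endothelium. Hspa12a showed the widest change of any member. Hspa12a (ENSMUSG00000025092, chr19:58795751-58860984, minus strand) was at 33.2, 33.4, 35.7 and 38.4 CPM with Twist1 shRNA 1 and at 57.5, 55.3, 63.4 and 62.2 CPM with Twist1 shRNA 2. With control shRNA, Hspa12a was at 109.6, 119, 110.3 and 114 CPM in 72Q neurons, against 128, 145, 131 and 128 CPM in 25Q neurons. The 4 groups did not overlap, and both hairpin groups lay under the 25Q control as well as the 72Q control. For Hspa12a the log2 fold change was -0.23 ± 0.052 in 72Q over 25Q (adjusted p = 0.000332, 4 of 4 experiments), -1.69 ± 0.057 in shRNA 1 over the 72Q control (adjusted p = 2.49e-20, 4 of 4 experiments) and -0.92 ± 0.054 in shRNA 2 over the 72Q control (adjusted p = 2.38e-14, 4 of 4 experiments). The hairpins differed from each other by -0.76 ± 0.058 in shRNA 1 over shRNA 2 (adjusted p = 3.4e-12, 4 of 4 experiments). The smaller fall in 72Q was lost with library totals alone (-0.098). The letters CAGATG or CATCTG were not found in either of its promoter windows, but both hold the general E-box letters CANNTG. These lie at bases -199 to -194 and -75 to -70 in one window and at -214 to -209 in the other. Such letters were found in 75.0% of all genes, and binding was not tested.

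Hspa12b was at 0.647, 1.53, 0.904 and 0.936 CPM with Twist1 shRNA 1 and at 1.40, 1.31, 1.91 and 2.44 CPM with Twist1 shRNA 2. With control shRNA, Hspa12b was at 1.04, 1.58, 2.26 and 1.86 CPM in 72Q neurons, against 1.62, 1.22, 1.17 and 1.33 CPM in 25Q neurons. The groups overlapped, and the libraries were shallow for this gene, with 72 counts summed over the shRNA 1 libraries, 136 over shRNA 2 and 120 over the 72Q control, against 88 over the 25Q control. Its log2 fold change was -0.66 ± 0.27 in shRNA 1 over the 72Q control (adjusted p = 0.027, 4 of 4 experiments). The call was lost without the exp109a library of the 72Q control or the exp107 or exp109a or exp109b library of shRNA 1, at -0.48 to -0.57. In 72Q over 25Q it was 0.30 ± 0.25 (adjusted p = 0.296, 3 of 4 experiments), and with shRNA 2 0.063 ± 0.23 (adjusted p = 0.852, 2 of 4 experiments).

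HSP110 genes, which encode nucleotide exchange partners of HSP70 able to act in disaggregation, moved in different directions. Hspa4 rose in 72Q and Hspa4l and Hsph1 fell. Hspa4 was at 241, 286, 262 and 274 CPM with Twist1 shRNA 1 and at 331, 381, 357 and 345 CPM with Twist1 shRNA 2. With control shRNA, Hspa4 was at 312, 360.2, 317 and 344 CPM in 72Q neurons, against 258, 258, 258 and 271 CPM in 25Q neurons. The 72Q control and shRNA 2 libraries all lay above the 25Q control, while the shRNA 1 libraries spanned the 25Q level. For Hspa4 the log2 fold change was 0.35 ± 0.045 in 72Q over 25Q (adjusted p = 9.49e-08, 4 of 4 experiments), -0.33 ± 0.045 in shRNA 1 over the 72Q control (adjusted p = 4.26e-07, 4 of 4 experiments) and 0.085 ± 0.044 in shRNA 2 over the 72Q control (adjusted p = 0.125, 4 of 4 experiments). Between the hairpins the log2 fold change was -0.41 ± 0.045 in shRNA 1 over shRNA 2 (adjusted p = 4.48e-09, 4 of 4 experiments).

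Hspa4l was at 88.8, 89.6, 93.2 and 91.0 CPM with Twist1 shRNA 1 and at 99.9, 98.5, 110.0 and 100.3 CPM with Twist1 shRNA 2. With control shRNA, Hspa4l was at 79.1, 81.2, 83.5 and 74.0 CPM in 72Q neurons, against 93.6, 97.3, 96.5 and 93.1 CPM in 25Q neurons. The 72Q control had the lowest libraries of the 4 groups and shRNA 2 the highest, with no overlap between these and the 25Q control. For Hspa4l the log2 fold change was -0.26 ± 0.046 in 72Q over 25Q (adjusted p = 1.48e-05, 4 of 4 experiments), 0.19 ± 0.046 in shRNA 1 over the 72Q control (adjusted p = 0.000923, 4 of 4 experiments) and 0.36 ± 0.045 in shRNA 2 over the 72Q control (adjusted p = 1.2e-07, 4 of 4 experiments). In shRNA 2 over the 25Q control the difference was 0.10 ± 0.045 (adjusted p = 0.0456, 4 of 4 experiments), a call lost without the exp107 or exp109a or exp109b library of the 25Q control or the exp107 or exp109a or exp109b library of shRNA 2, at 0.082 to 0.11.

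Hsph1, a heat-inducible HSP110 with a 3-unit element in its window, was lower in every 72Q group than with 25Q. Hsph1 was at 109, 103, 115 and 98.4 CPM with Twist1 shRNA 1 and at 108, 111, 109.7 and 107 CPM with Twist1 shRNA 2. With control shRNA, Hsph1 was at 120.0, 107, 141 and 117 CPM in 72Q neurons, against 144, 148, 154 and 151 CPM in 25Q neurons. No library of the 3 groups with 72Q reached the lowest 25Q control library. For Hsph1 the log2 fold change was -0.31 ± 0.051 in 72Q over 25Q (adjusted p = 7.92e-06, 4 of 4 experiments), -0.19 ± 0.052 in shRNA 1 over the 72Q control (adjusted p = 0.00373, 4 of 4 experiments) and -0.15 ± 0.052 in shRNA 2 over the 72Q control (adjusted p = 0.0211, 3 of 4 experiments). Its log2 fold change was -0.49 ± 0.052 in shRNA 1 over 25Q (adjusted p = 1.92e-09, 4 of 4 experiments) and -0.45 ± 0.052 in shRNA 2 over 25Q (adjusted p = 6.47e-09, 4 of 4 experiments). The fall with shRNA 2 was lost without the exp109a library of the 72Q control or the exp109a or exp109b library of shRNA 2, at -0.093 to -0.14, and with upper-quartile factors (-0.11) and with library totals alone (-0.074).

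The constitutive HSP90 gene Hsp90ab1 rose with both Twist1 shRNAs, and the stress-inducible Hsp90aa1 was not called in these comparisons or in 72Q over 25Q. Hsp90ab1 had the highest level per length of all members, with group means between 318 and 579 in deposited RPKM, followed by the TRiC subunit Cct6a at 109.5 to 139. Hsp90ab1 (ENSMUSG00000023944, chr17:45567775-45573271, minus strand) was at 1659, 1938, 1676 and 1634 CPM with Twist1 shRNA 1 and at 1489, 1686, 1373 and 1461 CPM with Twist1 shRNA 2. With control shRNA, Hsp90ab1 was at 1111, 1300.0, 1004 and 1185 CPM in 72Q neurons, against 1041, 1088, 1036 and 981 CPM in 25Q neurons. Every hairpin library lay above every 72Q control library, and the exp108 library was the highest of each group. For Hsp90ab1 the log2 fold change was 0.15 ± 0.048 in 72Q over 25Q (adjusted p = 0.0106, 3 of 4 experiments), 0.59 ± 0.048 in shRNA 1 over the 72Q control (adjusted p = 1.72e-11, 4 of 4 experiments) and 0.39 ± 0.048 in shRNA 2 over the 72Q control (adjusted p = 1.1e-07, 4 of 4 experiments). The small rise in 72Q was lost without the exp108 or exp109b library of the 25Q control or the exp109b library of the 72Q control, at 0.11 to 0.12. Between the hairpins the difference was 0.20 ± 0.048 in shRNA 1 over shRNA 2 (adjusted p = 0.000695, 4 of 4 experiments).

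Hsp90aa1 was at 218, 243, 207 and 209 CPM with Twist1 shRNA 1 and at 219.6, 228, 202 and 208 CPM with Twist1 shRNA 2. With control shRNA, Hsp90aa1 was at 202, 234, 183 and 198 CPM in 72Q neurons, against 206, 225, 197 and 185 CPM in 25Q neurons. All groups overlapped. For Hsp90aa1 the log2 fold change was 0.0079 ± 0.043 in 72Q over 25Q (adjusted p = 0.887, 2 of 4 experiments), 0.10 ± 0.043 in shRNA 1 over the 72Q control (adjusted p = 0.0565, 4 of 4 experiments) and 0.072 ± 0.043 in shRNA 2 over the 72Q control (adjusted p = 0.188, 3 of 4 experiments). In shRNA 1 over 25Q, Hsp90aa1 was 0.11 ± 0.043 (adjusted p = 0.0328, 4 of 4 experiments), a call lost without the exp108 or exp109a or exp109b library of shRNA 1 or the exp107 or exp108 or exp109b library of the 25Q control, at 0.082 to 0.11. The 95% interval for 72Q over 25Q reached from -0.080 to 0.096.

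Of the 5 co-chaperones of HSP90, 2 were called higher and 2 lower in 72Q over 25Q. Of all genes tested, 29.3% were called higher and 27.8% lower there. Chordc1, a zinc-binding partner of HSP90 that carries the 3-unit elements shown for its start, had the widest fall of any member in that comparison. Chordc1 (ENSMUSG00000001774, chr9:18292267-18314000, plus strand) was at 29.1, 30.8, 31.6 and 24.6 CPM with Twist1 shRNA 1 and at 23.4, 22.4, 25.7 and 20.2 CPM with Twist1 shRNA 2. With control shRNA, Chordc1 was at 21.8, 19.7, 25.2 and 18.9 CPM in 72Q neurons, against 38.8, 44.0, 37.0 and 34.6 CPM in 25Q neurons. The 72Q groups all lay below the 25Q control, and shRNA 1 lay above the 72Q control in each experiment with a slight overlap of the ranges. For Chordc1 the log2 fold change was -0.85 ± 0.070 in 72Q over 25Q (adjusted p = 1.81e-11, 4 of 4 experiments), 0.44 ± 0.072 in shRNA 1 over the 72Q control (adjusted p = 8.19e-06, 4 of 4 experiments) and 0.098 ± 0.073 in shRNA 2 over the 72Q control (adjusted p = 0.294, 4 of 4 experiments). The Chordc1 log2 fold change was -0.41 ± 0.068 in shRNA 1 over 25Q (adjusted p = 6.38e-06, 4 of 4 experiments) and -0.75 ± 0.069 in shRNA 2 over 25Q (adjusted p = 9.94e-11, 4 of 4 experiments). Between the hairpins it was 0.34 ± 0.071 in shRNA 1 over shRNA 2 (adjusted p = 0.000164, 4 of 4 experiments).

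Stip1, the adaptor that joins HSP70 to HSP90, had the highest called rise of the co-chaperones in 72Q. Stip1 was at 194, 228, 187 and 196 CPM with Twist1 shRNA 1 and at 221, 259.9, 199 and 225 CPM with Twist1 shRNA 2. With control shRNA, Stip1 was at 206, 255, 196 and 207 CPM in 72Q neurons, against 158, 199, 168 and 168 CPM in 25Q neurons. The exp108 library was the highest of each group, so the ranges of 72Q and 25Q control overlapped although each experiment showed the rise. For Stip1 the log2 fold change was 0.32 ± 0.043 in 72Q over 25Q (adjusted p = 2.95e-07, 4 of 4 experiments), -0.097 ± 0.043 in shRNA 1 over the 72Q control (adjusted p = 0.0658, 4 of 4 experiments) and 0.070 ± 0.043 in shRNA 2 over the 72Q control (adjusted p = 0.196, 4 of 4 experiments). St13, another HSP70-binding adaptor, rose by 0.20 ± 0.044 in 72Q over 25Q (adjusted p = 0.000257, 4 of 4 experiments), and its values with the hairpins were -0.036 ± 0.043 and -0.053 ± 0.043. Ahsa1, which activates the HSP90 ATPase, rose by 0.24 ± 0.050 in shRNA 1 over the 72Q control (adjusted p = 0.00018, 4 of 4 experiments) and differed between the hairpins by 0.31 ± 0.050 in shRNA 1 over shRNA 2 (adjusted p = 4.24e-06, 4 of 4 experiments). In 72Q over 25Q it was 0.064 ± 0.051, and with shRNA 2 -0.071 ± 0.050.

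Fkbp4, an immunophilin that loads steroid receptors, fell in 72Q. Fkbp4 was at 151, 168, 142 and 144 CPM with Twist1 shRNA 1 and at 180.4, 186, 168 and 154 CPM with Twist1 shRNA 2. With control shRNA, Fkbp4 was at 159.6, 176, 156 and 162 CPM in 72Q neurons, against 187, 206, 186 and 178 CPM in 25Q neurons. The 72Q control libraries lay under all 25Q control libraries, and the shRNA 2 libraries spanned both. For Fkbp4 the log2 fold change was -0.21 ± 0.044 in 72Q over 25Q (adjusted p = 0.000139, 4 of 4 experiments), -0.12 ± 0.044 in shRNA 1 over the 72Q control (adjusted p = 0.0328, 4 of 4 experiments) and 0.073 ± 0.044 in shRNA 2 over the 72Q control (adjusted p = 0.188, 3 of 4 experiments). With shRNA 1 the call was lost without the exp107 or exp109a or exp109b library of shRNA 1 or the exp109b library of the 72Q control, at -0.085 to -0.12, and with upper-quartile factors (-0.093) and with no filter (-0.10), and in 72Q it was lost with library totals alone (-0.076).

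Of the small heat shock proteins, Cryab, which encodes alpha-B-crystallin and is known from astrocytes and oligodendrocytes as well as muscle and lens, fell in 72Q and rose with shRNA 1. Cryab was at 23.0, 18.0, 18.7 and 16.2 CPM with Twist1 shRNA 1 and at 13.2, 10.8, 8.29 and 8.59 CPM with Twist1 shRNA 2. With control shRNA, Cryab was at 12.7, 8.23, 10.2 and 9.45 CPM in 72Q neurons, against 14.5, 15.2, 13.6 and 13.5 CPM in 25Q neurons. The shRNA 1 libraries lay above all others, and those of shRNA 2 and the 72Q control lay below all 25Q control libraries. For Cryab the log2 fold change was -0.49 ± 0.10 in 72Q over 25Q (adjusted p = 0.000114, 4 of 4 experiments), 0.90 ± 0.096 in shRNA 1 over the 72Q control (adjusted p = 4.96e-09, 4 of 4 experiments) and 0.0056 ± 0.10 in shRNA 2 over the 72Q control (adjusted p = 0.972, 2 of 4 experiments). The hairpins differed by 0.89 ± 0.095 in shRNA 1 over shRNA 2 (adjusted p = 3.23e-09, 4 of 4 experiments). Beside this, astrocyte markers were called higher in 1 and lower in 1 of 10 with shRNA 1 and lower in 6 of 10 with shRNA 2, and oligodendrocyte lineage markers were lower in 6 of 10 with shRNA 1 and 7 of 10 with shRNA 2. In shRNA 1 over shRNA 2, 5 of 10 astrocyte and 7 of 10 oligodendrocyte lineage markers were higher, and 1 astrocyte marker was lower. In 72Q over 25Q, 5 of 10 astrocyte markers were higher, and of 10 oligodendrocyte lineage markers 3 were higher and 2 lower. Of all genes tested, 22.7% were called higher and 23.6% lower with shRNA 1, and 20.2% and 21.5% with shRNA 2. These shares were 27.3% and 25.9% between the hairpins and 29.3% and 27.8% in 72Q over 25Q. The part of the glial markers in the Cryab values was not tested.

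Hspb8, the partner of Bag3 in autophagy of aggregates, was between 3.39 and 7.36 CPM in all libraries and was called in none of the 3 comparisons (0.25 ± 0.12 in 72Q over 25Q, 0.19 ± 0.12 with shRNA 1 and -0.047 ± 0.12 with shRNA 2). In shRNA 1 over 25Q, Hspb8 was called higher at 0.43 ± 0.12, with overlapping libraries. Hspb1, the inducible HSP27 with 2 repeats in its window, was close to the limit of detection. Hspb1 was at 0, 0.256, 0.113 and 0 CPM with Twist1 shRNA 1 and at 0.0537, 0.164, 0 and 0.106 CPM with Twist1 shRNA 2. With control shRNA, Hspb1 was at 0.0610, 0.0584, 0.113 and 0.155 CPM in 72Q neurons, against 0.0579, 0, 0 and 0 CPM in 25Q neurons. Its counts summed to 7 with shRNA 1, 6 with shRNA 2 and 7 in the 72Q control, against 1 in the 25Q control, so no fold change is given.

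The 10 J-domain genes, which choose the clients of HSP70, gave 6 higher and 1 lower call in 72Q over 25Q, where 29.3% of all genes tested were called higher and 27.8% lower. Dnajb2, whose longer form is enriched in neurons and carries ubiquitin-binding motifs, had the widest rise of any member in that comparison. Dnajb2 (ENSMUSG00000026203, chr1:75236406-75245692, plus strand) was at 36.1, 41.0, 38.0 and 47.2 CPM with Twist1 shRNA 1 and at 109, 125, 127 and 139.5 CPM with Twist1 shRNA 2. With control shRNA, Dnajb2 was at 89.2, 117, 92.3 and 119 CPM in 72Q neurons, against 49.6, 56.0, 57.4 and 58.1 CPM in 25Q neurons. The 72Q control and shRNA 2 libraries lay above the 25Q control, while all shRNA 1 libraries lay below it. For Dnajb2 the log2 fold change was 0.91 ± 0.055 in 72Q over 25Q (adjusted p = 2.55e-14, 4 of 4 experiments), -1.36 ± 0.057 in shRNA 1 over the 72Q control (adjusted p = 3.28e-18, 4 of 4 experiments) and 0.27 ± 0.052 in shRNA 2 over the 72Q control (adjusted p = 0.000127, 4 of 4 experiments). The hairpins differed by -1.62 ± 0.056 in shRNA 1 over shRNA 2 (adjusted p = 4.47e-20, 4 of 4 experiments), the widest difference between them among the members.

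**Figure D4:**
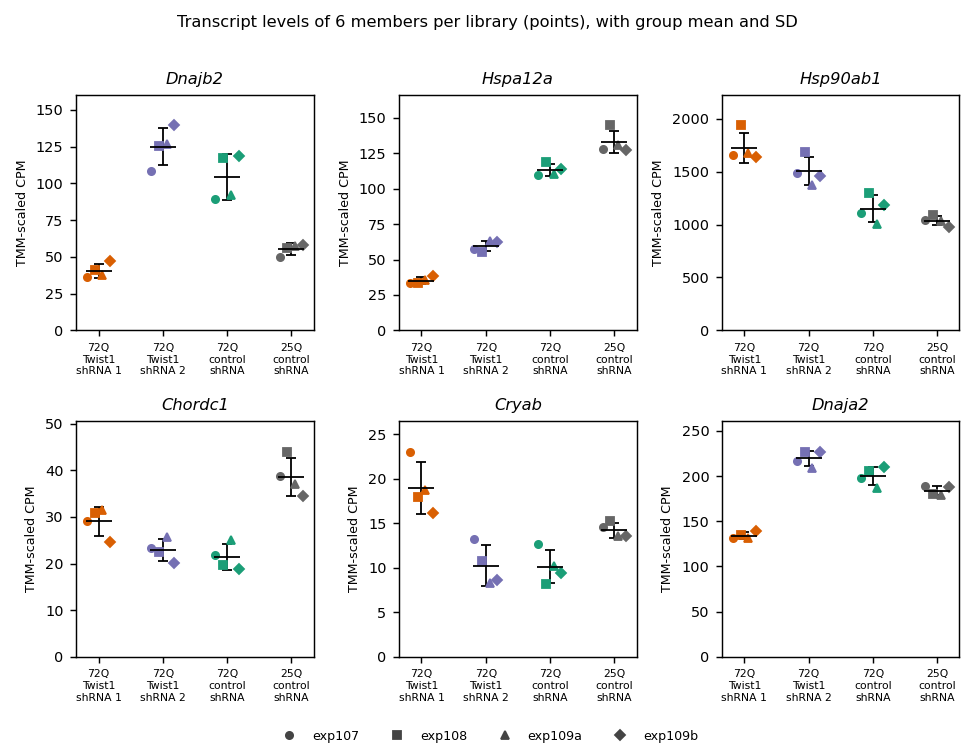
TMM-scaled CPM (y axis) of 6 members in each library (points, shaped by experiment), with the group mean and SD (bars), for shRNA 1, shRNA 2, 72Q control and 25Q control from left to right. Dnajb2 and Dnaja2 were lowest with shRNA 1, Hspa12a fell with both hairpins, Hsp90ab1 rose with both, and Cryab was highest with shRNA 1.

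Dnajb1, the classical HSP40 and a known target of HSF1, rose in 72Q. Dnajb1 was at 50.2, 56.2, 51.7 and 51.6 CPM with Twist1 shRNA 1 and at 49.0, 55.5, 52.3 and 50.1 CPM with Twist1 shRNA 2. With control shRNA, Dnajb1 was at 47.7, 65.2, 50.2 and 59.6 CPM in 72Q neurons, against 44.0, 41.8, 42.0 and 39.2 CPM in 25Q neurons. Every library of the 3 groups with 72Q lay above every 25Q control library, and the 72Q control was the most spread. For Dnajb1 the log2 fold change was 0.41 ± 0.064 in 72Q over 25Q (adjusted p = 3.19e-06, 4 of 4 experiments), -0.084 ± 0.063 in shRNA 1 over the 72Q control (adjusted p = 0.286, 2 of 4 experiments) and -0.10 ± 0.062 in shRNA 2 over the 72Q control (adjusted p = 0.19, 2 of 4 experiments). Its log2 fold change was 0.32 ± 0.065 in shRNA 1 over 25Q (adjusted p = 8.37e-05, 4 of 4 experiments) and 0.30 ± 0.064 in shRNA 2 over 25Q (adjusted p = 0.000139, 4 of 4 experiments).

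Dnajb5, a relative of Dnajb1, fell in 72Q. Dnajb5 was at 81.5, 95.7, 91.4 and 83.5 CPM with Twist1 shRNA 1 and at 84.6, 92.7, 92.1 and 93.9 CPM with Twist1 shRNA 2. With control shRNA, Dnajb5 was at 83.4, 102, 90.6 and 92.5 CPM in 72Q neurons, against 113, 125, 121 and 128 CPM in 25Q neurons. No library with 72Q reached the lowest 25Q control library. For Dnajb5 the log2 fold change was -0.40 ± 0.047 in 72Q over 25Q (adjusted p = 1.72e-08, 4 of 4 experiments), -0.066 ± 0.047 in shRNA 1 over the 72Q control (adjusted p = 0.267, 3 of 4 experiments) and -0.020 ± 0.047 in shRNA 2 over the 72Q control (adjusted p = 0.773, 1 of 4 experiments).

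Dnaja1, a farnesylated partner of HSC70 with a head-to-head repeat in its window, rose with both hairpins. Dnaja1 was at 79.4, 86.1, 81.9 and 78.8 CPM with Twist1 shRNA 1 and at 77.0, 77.1, 74.1 and 72.1 CPM with Twist1 shRNA 2. With control shRNA, Dnaja1 was at 61.7, 70.2, 56.0 and 63.7 CPM in 72Q neurons, against 55.5, 57.5, 57.0 and 57.4 CPM in 25Q neurons. The hairpin libraries lay above those of the 72Q control, and the 25Q control was the most even group. For Dnaja1 the log2 fold change was 0.14 ± 0.052 in 72Q over 25Q (adjusted p = 0.0195, 3 of 4 experiments), 0.38 ± 0.051 in shRNA 1 over the 72Q control (adjusted p = 3.81e-07, 4 of 4 experiments) and 0.26 ± 0.051 in shRNA 2 over the 72Q control (adjusted p = 0.000131, 4 of 4 experiments). The rise in 72Q was lost without the exp107 or exp108 library of the 25Q control or the exp108 or exp109b library of the 72Q control, at 0.10 to 0.13, and with no filter (0.14). Dnaja1 overlaps Smu1 on the other strand.

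Dnaja4, with 2 head-to-head repeats in its window, rose in 72Q and fell with both hairpins. Dnaja4 was at 9.70, 12.4, 11.2 and 10.1 CPM with Twist1 shRNA 1 and at 9.94, 11.3, 12.2 and 11.2 CPM with Twist1 shRNA 2. With control shRNA, Dnaja4 was at 13.4, 16.1, 14.7 and 14.8 CPM in 72Q neurons, against 11.4, 10.6, 13.5 and 12.2 CPM in 25Q neurons. The hairpin libraries lay below those of the 72Q control and within or near the range of the 25Q control. For Dnaja4 the log2 fold change was 0.31 ± 0.086 in 72Q over 25Q (adjusted p = 0.00312, 4 of 4 experiments), -0.44 ± 0.087 in shRNA 1 over the 72Q control (adjusted p = 0.000106, 4 of 4 experiments) and -0.40 ± 0.085 in shRNA 2 over the 72Q control (adjusted p = 0.000324, 4 of 4 experiments). Dnaja4 overlaps Wdr61 on the other strand by 1581 exonic bases, and the strand of the reads is not known.

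Dnaja2, a type I partner of HSC70, fell with shRNA 1 by 0.57 ± 0.042 (adjusted p = 1.4e-12, 4 of 4 experiments) and rose with shRNA 2 by 0.13 ± 0.041 (adjusted p = 0.0085, 4 of 4 experiments). All shRNA 1 libraries, between 131 and 139 CPM, lay below every other library. The rise in 72Q was 0.12 ± 0.041 (adjusted p = 0.0145, 4 of 4 experiments), and it was lost without the exp108 or exp109b library of the 25Q control or the exp109b library of the 72Q control, at 0.097 to 0.11, and with no filter (0.11). Dnajb4, an HSP40 of many tissues, rose by 0.50 ± 0.066 in 72Q over 25Q (adjusted p = 1.58e-07, 4 of 4 experiments). It rose with shRNA 1 by 0.27 ± 0.063 (adjusted p = 0.000717, 4 of 4 experiments) and fell with shRNA 2 by 0.28 ± 0.064 (adjusted p = 0.000615, 4 of 4 experiments), with no overlap between either hairpin and the 72Q control.

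Dnajb6, a strong suppressor of polyglutamine aggregation in model systems with a 3-unit element in its window, was not called in 72Q over 25Q (0.15 ± 0.097, adjusted p = 0.172, 4 of 4 experiments). Its values with the hairpins over the 72Q control were 0.097 ± 0.093 for shRNA 1 and -0.19 ± 0.095 for shRNA 2, neither called. Dnajb6 was called higher in shRNA 1 over shRNA 2 and in shRNA 1 over 25Q, with overlapping libraries. Its group means were 9.02 CPM with shRNA 1 and 7.37 CPM with shRNA 2, against 7.57 CPM in 25Q control. Dnajc5, the cysteine string protein of synaptic vesicles, had between 569 and 660 CPM and differed in none of the 3 comparisons beyond the threshold (0.033 ± 0.040, -0.059 ± 0.040 and -0.061 ± 0.040 in 72Q, with shRNA 1 and with shRNA 2). Dnajc7, which binds HSP70 and HSP90 together, had a log2 fold change of 0.13 ± 0.044 in shRNA 2 over the 72Q control (adjusted p = 0.0144, 4 of 4 experiments). Dnajb6 overlaps Gm5129, and Dnajc7 overlaps Cnp and Nkiras2, on the other strand.

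BAG proteins release nucleotide from HSP70, and ubiquilin 2 carries clients to the proteasome. Bag3, which directs HSP70 clients to autophagy, had a log2 fold change of 0.33 ± 0.13 in 72Q over 25Q (adjusted p = 0.0281, 4 of 4 experiments) and -0.32 ± 0.13 in shRNA 2 over the 72Q control (adjusted p = 0.0389, 3 of 4 experiments). Bag3 was at 5.64, 3.89, 4.58 and 4.49 CPM with Twist1 shRNA 1 and at 4.94, 3.88, 3.91 and 3.39 CPM with Twist1 shRNA 2. With control shRNA, Bag3 was at 5.79, 3.62, 5.03 and 5.78 CPM in 72Q neurons, against 4.46, 3.36, 3.99 and 4.19 CPM in 25Q neurons. The ranges of all groups overlapped, at 263 to 358 counts summed over 4 libraries. With shRNA 1 it was -0.12 ± 0.13 (adjusted p = 0.452, 3 of 4 experiments). The call in 72Q was lost without the exp109a or exp109b library of the 72Q control or the exp107 or exp109a library of the 25Q control, at 0.23 to 0.33, and in DESeq2 (0.33). With shRNA 2 it was lost without the exp107 or exp109a or exp109b library of the 72Q control or the exp107 or exp109a or exp109b library of shRNA 2, at -0.20 to -0.35, and with upper-quartile factors (-0.28), with library totals alone (-0.25), with no filter (-0.32), with the 2 groups alone (-0.32) and in DESeq2 (-0.32).

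Bag1, a partner that links HSP70 to the proteasome, fell with shRNA 2. Bag1 was at 123, 112, 102 and 108 CPM with Twist1 shRNA 1 and at 111, 103, 95.8 and 95.5 CPM with Twist1 shRNA 2. With control shRNA, Bag1 was at 122, 126, 116 and 119 CPM in 72Q neurons, against 134, 142, 121 and 122 CPM in 25Q neurons. Every shRNA 2 library lay below every 72Q control library. For Bag1 the log2 fold change was -0.100 ± 0.046 in 72Q over 25Q (adjusted p = 0.0637, 4 of 4 experiments), -0.12 ± 0.046 in shRNA 1 over the 72Q control (adjusted p = 0.0324, 3 of 4 experiments) and -0.26 ± 0.046 in shRNA 2 over the 72Q control (adjusted p = 3.59e-05, 4 of 4 experiments). With shRNA 1 the call was lost without the exp108 or exp109a or exp109b library of the 72Q control or the exp108 or exp109a library of shRNA 1, at -0.10 to -0.12, and with upper-quartile factors (-0.098) and with no filter (-0.11).

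Bag2, an inhibitor of the ubiquitin ligase CHIP, was called lower in 72Q and higher with each hairpin. Bag2 was at 21.8, 24.0, 20.2 and 18.6 CPM with Twist1 shRNA 1 and at 20.3, 26.6, 17.2 and 21.9 CPM with Twist1 shRNA 2. With control shRNA, Bag2 was at 21.6, 19.5, 16.2 and 15.9 CPM in 72Q neurons, against 20.7, 25.3, 21.0 and 18.2 CPM in 25Q neurons. All groups overlapped. For Bag2 the log2 fold change was -0.22 ± 0.085 in 72Q over 25Q (adjusted p = 0.028, 3 of 4 experiments), 0.21 ± 0.085 in shRNA 1 over the 72Q control (adjusted p = 0.0424, 4 of 4 experiments) and 0.23 ± 0.084 in shRNA 2 over the 72Q control (adjusted p = 0.0265, 3 of 4 experiments). In 72Q it was lost without the exp108 or exp109a or exp109b library of the 72Q control or the exp108 or exp109a library of the 25Q control, at -0.17 to -0.21, and with upper-quartile factors (-0.16) and with library totals alone (-0.085). With shRNA 1 it was lost without the exp108 or exp109a or exp109b library of the 72Q control or the exp107 or exp108 or exp109a or exp109b library of shRNA 1, at 0.15 to 0.23, and in DESeq2 (0.21). With shRNA 2 it was lost without the exp108 or exp109a or exp109b library of the 72Q control or the exp108 or exp109b library of shRNA 2, at 0.17 to 0.22. Bag5 was -0.10 ± 0.064, -0.14 ± 0.065 and -0.043 ± 0.064 and Ubqln2 0.042 ± 0.051, 0.11 ± 0.050 and -0.046 ± 0.051 in 72Q, with shRNA 1 and with shRNA 2, and neither was called in these 3 comparisons. Over 25Q, Bag5 was called lower with both hairpins, at -0.24 ± 0.065 with shRNA 1. Ubqln2 was called higher in shRNA 1 over 25Q, at 0.15 ± 0.051, and in shRNA 1 over shRNA 2, at 0.15 ± 0.050.

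The 8 subunits of TRiC, which assemble into 1 complex, were called in both directions. Of all genes tested, 29.3% were called higher and 27.8% lower in 72Q over 25Q. These shares were 22.7% and 23.6% with shRNA 1 and 20.2% and 21.5% with shRNA 2. In 72Q over 25Q, Cct3 and Cct8 rose and Cct4 and Cct5 fell, though with library totals alone the Cct4 and Cct5 differences turned to 0.031 and 0.0017. With shRNA 1, Tcp1, Cct2, Cct6a and Cct7 fell, Cct3 rose, and Cct4, Cct5 and Cct8 were 0.017 ± 0.042, -0.065 ± 0.043 and -0.023 ± 0.043. With shRNA 2, Cct3 alone was called, lower by 0.11, and the other subunits lay between -0.021 and 0.087. In each group the exp108 library was the highest for all 8 subunits, apart from Cct7 with shRNA 1, where exp107 and exp108 were nearly equal.

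Cct7 was at 153, 153, 141 and 139 CPM with Twist1 shRNA 1 and at 199, 207, 190.1 and 184 CPM with Twist1 shRNA 2. With control shRNA, Cct7 was at 199, 217, 188 and 189 CPM in 72Q neurons, against 209, 216, 195 and 181 CPM in 25Q neurons. The shRNA 1 libraries lay below all others, which overlapped one another. For Cct7 the log2 fold change was -0.015 ± 0.041 in 72Q over 25Q (adjusted p = 0.771, 2 of 4 experiments), -0.43 ± 0.042 in shRNA 1 over the 72Q control (adjusted p = 5.37e-10, 4 of 4 experiments) and -0.021 ± 0.041 in shRNA 2 over the 72Q control (adjusted p = 0.73, 2 of 4 experiments). Against shRNA 2, Cct7 was -0.41 ± 0.041 in shRNA 1 over shRNA 2 (adjusted p = 1.08e-09, 4 of 4 experiments). The falls of the other subunits with shRNA 1 were -0.36 ± 0.047 (adjusted p = 1.81e-07, 4 of 4 experiments) for Tcp1, -0.32 ± 0.043 (adjusted p = 2.99e-07, 4 of 4 experiments) for Cct2 and -0.21 ± 0.044 (adjusted p = 0.000258, 4 of 4 experiments) for Cct6a.

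Cct3 was at 167, 180.2, 144 and 146 CPM with Twist1 shRNA 1 and at 133, 147, 128 and 121 CPM with Twist1 shRNA 2. With control shRNA, Cct3 was at 143, 158, 134 and 135 CPM in 72Q neurons, against 129, 139.9, 116 and 108 CPM in 25Q neurons. The exp108 library was again the highest of each group, and within each experiment shRNA 1 was the highest group and the 25Q control the lowest. For Cct3 the log2 fold change was 0.21 ± 0.044 in 72Q over 25Q (adjusted p = 0.000118, 4 of 4 experiments), 0.16 ± 0.043 in shRNA 1 over the 72Q control (adjusted p = 0.00337, 4 of 4 experiments) and -0.11 ± 0.044 in shRNA 2 over the 72Q control (adjusted p = 0.0483, 4 of 4 experiments). The fall with shRNA 2 was lost without any one of the 8 libraries, at -0.084 to -0.12, and with upper-quartile factors (-0.069), with library totals alone (-0.032), with no filter (-0.10) and in DESeq2 (-0.097).

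Cct5 was at 181, 192, 162 and 166 CPM with Twist1 shRNA 1 and at 200.2, 219, 186 and 173 CPM with Twist1 shRNA 2. With control shRNA, Cct5 was at 188, 204, 167 and 174 CPM in 72Q neurons, against 196, 231, 192 and 185 CPM in 25Q neurons. All groups overlapped. For Cct5 the log2 fold change was -0.13 ± 0.043 in 72Q over 25Q (adjusted p = 0.00883, 4 of 4 experiments), -0.065 ± 0.043 in shRNA 1 over the 72Q control (adjusted p = 0.222, 4 of 4 experiments) and 0.087 ± 0.043 in shRNA 2 over the 72Q control (adjusted p = 0.101, 3 of 4 experiments). The fall in 72Q was lost with upper-quartile factors (-0.070) and with library totals alone (0.0017). Cct8 had a log2 fold change of 0.13 ± 0.044 in 72Q over 25Q (adjusted p = 0.0114, 4 of 4 experiments), lost without the exp109b library of the 72Q control, at 0.11. Cct4 had one of -0.10 ± 0.042 in 72Q over 25Q (adjusted p = 0.0351, 4 of 4 experiments), lost without the exp107 or exp108 library of the 25Q control or the exp107 or exp108 library of the 72Q control, at -0.095 to -0.11, and with upper-quartile factors (-0.041), with library totals alone (0.031), with no filter (-0.11) and with the 2 groups alone (-0.097). Cct6a, Cct7, Cct8 and Tcp1 overlap genes on the other strand (Psph, Pradc1, Usp16, and Mrpl18 with Acat3), whose reads cannot be told apart here.

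**Figure D5:**
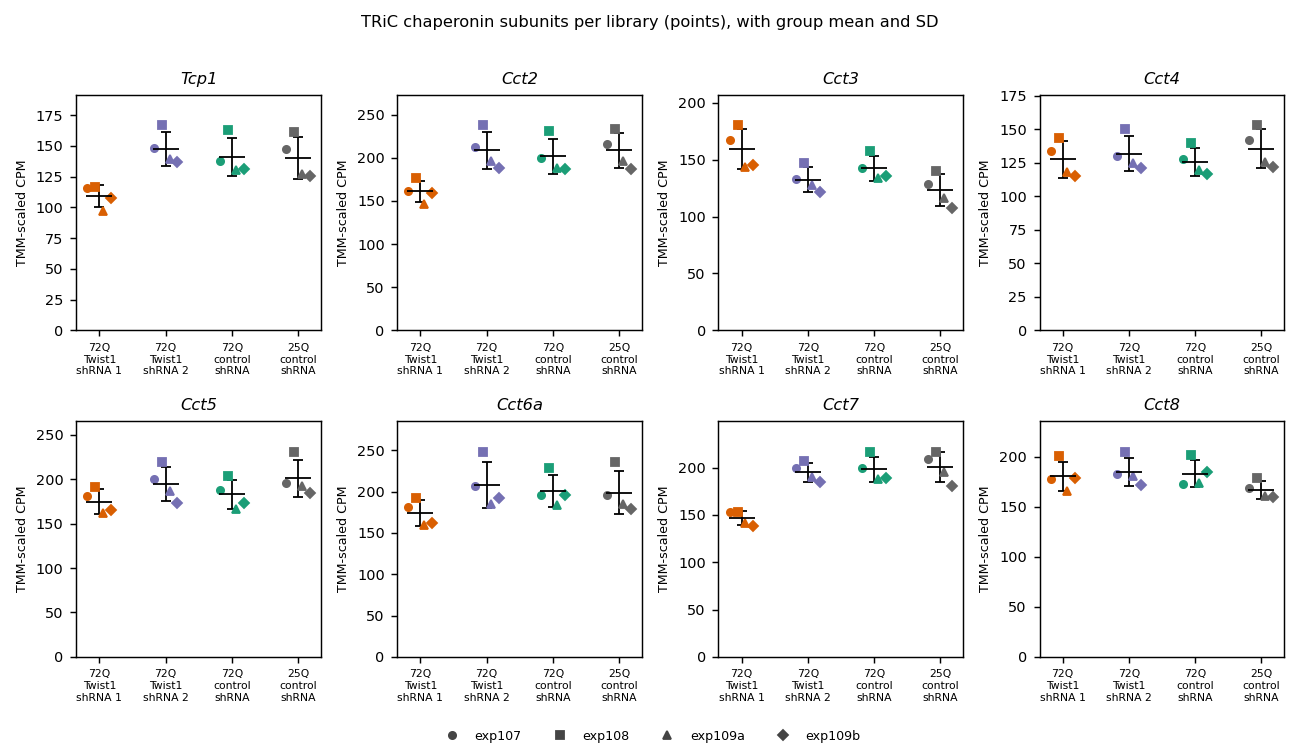
TMM-scaled CPM (y axis) of the 8 TRiC subunits in each library (points, shaped by experiment), with the group mean and SD (bars), for shRNA 1, shRNA 2, 72Q control and 25Q control from left to right. Tcp1, Cct2 and Cct7 were lower with shRNA 1 than in the 72Q control in all 4 experiments, and Cct3 was higher.

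Set directly against each other, the hairpins differed in Dnajb2, Hspa12a, Cryab, Dnaja2 and others, while Twist1 itself differed by -0.066 ± 0.24 on the log2 scale (adjusted p = 0.826). In shRNA 1 over shRNA 2, 12 members were called higher and 14 lower, where 27.3% of all genes tested were called higher and 25.9% lower, and the split was 6 and 20 with library totals alone. With those totals 36.5% of all genes called were higher, against 51.3% with TMM factors. Beside the genes given above, Dnaja2 differed by -0.71 ± 0.042 (adjusted p = 8.49e-15, 4 of 4 experiments), Dnajb4 by 0.55 ± 0.063 (adjusted p = 1.7e-08, 4 of 4 experiments) and Tcp1 by -0.43 ± 0.047 (adjusted p = 4.46e-09, 4 of 4 experiments), each with no overlap of libraries. Cct3 was 0.26 ± 0.043 (adjusted p = 6.6e-06, 4 of 4 experiments) and Stip1 -0.17 ± 0.043 (adjusted p = 0.00159, 4 of 4 experiments), with overlapping libraries.

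Compared with 25Q control neurons, 72Q neurons with shRNA 1 had 18 members called higher and 15 lower, where 28.1% of all genes tested were called higher and 29.4% lower, and the split was 21 and 10 with library totals alone. With those totals 66.5% of all genes called were higher, against 48.9% with TMM factors. With shRNA 2, 15 members were called higher and 8 lower, where 31.4% of all genes tested were called higher and 31.8% lower. The split was 21 and 6 under upper-quartile factors and 31 and 6 under library totals alone. Of all genes called, 61.5% and 72.3% were then higher, against 49.7% with TMM factors. Hsp90ab1 had log2 fold changes of 0.73 ± 0.048 in shRNA 1 over 25Q (adjusted p = 7.89e-14, 4 of 4 experiments) and 0.53 ± 0.048 in shRNA 2 over 25Q (adjusted p = 6.12e-11, 4 of 4 experiments). Dnajb2 was at -0.45 ± 0.059 in shRNA 1 over 25Q (adjusted p = 1.14e-07, 4 of 4 experiments) and 1.17 ± 0.055 in shRNA 2 over 25Q (adjusted p = 3.2e-17, 4 of 4 experiments). For Dnajb4 these were 0.77 ± 0.065 in shRNA 1 over 25Q (adjusted p = 2.75e-11, 4 of 4 experiments) and 0.22 ± 0.067 in shRNA 2 over 25Q (adjusted p = 0.005, 3 of 4 experiments). For Cryab they were 0.41 ± 0.093 in shRNA 1 over 25Q (adjusted p = 0.000372, 4 of 4 experiments) and -0.48 ± 0.099 in shRNA 2 over 25Q (adjusted p = 9.14e-05, 4 of 4 experiments). For Dnaja1 they were 0.52 ± 0.052 in shRNA 1 over 25Q (adjusted p = 6.16e-10, 4 of 4 experiments) and 0.40 ± 0.052 in shRNA 2 over 25Q (adjusted p = 6.78e-08, 4 of 4 experiments). All of these comparisons share the 25Q control libraries with 72Q over 25Q.

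Genes around the members were counted in 4 further lists. Over all genes tested, 29.3% were called higher and 27.8% lower in 72Q over 25Q, 22.7% and 23.6% with shRNA 1, and 20.2% and 21.5% with shRNA 2, and several of the counts lie near these shares. Of 9 prefoldin and chaperonin helpers tested, 4 rose and 1 fell in 72Q over 25Q, from 0.37 ± 0.065 for Pdcl3, a phosducin-like helper of TRiC, down to -0.17 ± 0.064 for Pfdn6, a prefoldin subunit. With shRNA 1, 4 fell, and with shRNA 2, 1 rose and 2 fell. Of 17 other HSP90 co-chaperones tested, 3 rose and 5 fell in 72Q over 25Q, from 0.22 ± 0.058 for Cdc37l1, a relative of the kinase co-chaperone Cdc37, down to -0.68 ± 0.056 for Pih1d1, a subunit of the R2TP complex. Their counts were 2 and 5 with shRNA 1 and 5 and 4 with shRNA 2. Of 27 further J-domain, HSP70, nucleotide exchange, ubiquilin, small heat shock protein and heat shock factor genes tested, 8 rose and 3 fell in 72Q over 25Q, from 0.50 ± 0.048 for Hspa13, an HSP70 of the endoplasmic reticulum, down to -1.76 ± 0.37 for Hspb3, a small heat shock protein of muscle. For them the counts were 4 and 10 with shRNA 1 and 4 and 3 with shRNA 2. Of 10 mitochondrial chaperones tested, 5 rose and 2 fell in 72Q over 25Q, from 0.58 ± 0.076 for Clpx, the ATPase of a matrix protease, down to -0.48 ± 0.049 for Trap1, the mitochondrial HSP90. The mitochondrial counts were 2 and 2 with shRNA 1 and 2 and 2 with shRNA 2.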

How the data were processed

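Gene tables of 16 libraries were used, 4 per group and 1 per group in each experiment named in the labels. Counts per gene were deposited by the authors, with CPM scaled to the library total and RPKM divided also by gene length, per the file headers. The submitters' processing notes name STAR 2.0.4b, Subread, featureCounts 1.45 and GRCm38, while nothing used here states the strandedness, the treatment of multi-mapping reads or the release of the gene models. Separate cultures are not stated either, so a p-value covers the spread among these libraries alone, part of which may be technical.

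The counts were fitted in edgeR 4.0.16 (R 4.3.3, limma 3.58.1) with TMM factors, filterByExpr, a quasi-likelihood fit with robust estimation, terms for group and experiment, and all 16 libraries, with Benjamini-Hochberg adjustment over 15103 genes. The prior count for fold changes was 2, and the SE came from the unshrunk coefficient and its F. Group means in text and figures are of TMM-scaled CPM; deposited RPKM gave levels per length, on the scale of library totals. The fit was tested on simulated data. Libraries of the same experiment deviated together for every pair of groups, with correlations of 0.223 to 0.612, so the experiment label was taken as the pairing. The means between experiments, -0.157 to -0.110, are no separate evidence. Deviations were taken from group means, so positive values within experiments force negative ones between them. Libraries of 1 group differed by 2.71 to 20.8 times what counting error gives (chi-square over its degrees of freedom), so none was a duplicate.

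Levels in every library are given for the heat shock factors, classical HSF1 targets, Hspa12a and the called member of each family with the highest and the lowest fold change in each of 3 comparisons; other members are given by fold change or range. The members, gene lists and tests were chosen with earlier results of these data known. Promoter windows came from RefSeq on GRCm38.p6. Alternatives were upper-quartile factors, library totals alone, DESeq2 1.42.0, no filter, at least 1 CPM in 4 libraries, no experiment block, a block by title number, the 2 compared groups alone, and leaving out each library.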

Additional observations from a re-analysis of the deposited data

Results flagged for a closer look

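Values of the 44 members with a row were examined in each group of 4 libraries for one library far from the others by Dixon's ratio at its 95% critical value. Of 176 groups of values 7 passed it, where chance passes about 1 in 20. Dnajb4 was at 43.9 CPM in the exp107 library of 25Q control, while the others lay between 34.6 and 35.5 CPM. Dnajb6 was at 10.6 CPM in the exp108 library of 72Q with shRNA 1, while the others lay between 8.42 and 8.52 CPM. Hsp90ab1 was at 1938 CPM in the exp108 library of 72Q with shRNA 1, while the others lay between 1634 and 1676 CPM. Hspa1a was at 3.00 CPM in the exp109a library of 72Q control, while the others lay between 3.15 and 3.17 CPM. Hspa4 was at 271 CPM in the exp109b library of 25Q control, while the others lay between 257.7 and 257.9 CPM. Hspa4l was at 110.0 CPM in the exp109a library of 72Q with shRNA 2, while the others lay between 98.5 and 100.3 CPM. Hspb1 was at 0.0579 CPM in the exp107 library of 25Q control, while the others were at 0. The Hspb1 value is 1 count. The cause of these values was not tested.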

How the results depend on the processing

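Leaving out 1 library at a time left 1895 of 2064 results of single members on the same side of the threshold. Of the rest, 152 lost a call and 17 gained one, and 0 results called in either fit changed sign. Members called higher then numbered 10 to 16 in 72Q over 25Q, 8 to 9 in shRNA 1 over the 72Q control, 7 to 10 in shRNA 2 over the 72Q control, 8 to 12 in shRNA 1 over shRNA 2, 13 to 16 in shRNA 1 over 25Q and 12 to 15 in shRNA 2 over 25Q, and members called lower 8 to 10, 11 to 15, 4 to 7, 13 to 14, 14 to 16 and 6 to 8 in the same order. The lowest of these in 72Q over 25Q, 10 higher, came without the exp109b library of the 72Q control, and in shRNA 2 over the 72Q control 5, 4 and 5 were lower without the exp109a library of the 72Q control and the exp109a and exp109b libraries of shRNA 2. Under the other alternatives 1817 of 2064 results stayed on the same side of the threshold, 173 lost a call, 58 gained one and 16 changed sign. Signs were again compared only for results called in either fit, so changes of sign in uncalled results were not counted. Library totals alone, which put the median of all genes at 0.16 in 72Q over 25Q, 0.13 in shRNA 1 over 25Q and 0.22 in shRNA 2 over 25Q, gave 29 members higher and 5 lower in the first, 17 and 4 in shRNA 2 over the 72Q control, 6 higher in shRNA 1 over shRNA 2 and 31 higher in shRNA 2 over 25Q. With these totals, 69.7% of all genes called were higher in 72Q over 25Q and 65.3% in shRNA 2 over the 72Q control. The shares were 36.5% in shRNA 1 over shRNA 2 and 72.3% in shRNA 2 over 25Q. Upper-quartile factors gave 13 higher and 5 lower in shRNA 2 over the 72Q control, where 57.1% of all genes called were higher. With library totals alone the sign changed in 72Q over 25Q for Cct4 0.031, Cct5 0.0017 and Cct7 0.12, in shRNA 1 over 25Q for Dnajc5 0.10 and in shRNA 2 over 25Q for Hsf1 0.19, Hsf2 0.20, Ahsa1 0.20, Fkbp4 0.072, Dnajc5 0.18, Bag5 0.065, Ubqln2 0.21, Cct2 0.21, Cct4 0.17, Cct5 0.16 and Cct7 0.17; with upper-quartile factors it changed for Cct2 0.099 in shRNA 2 over 25Q.

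Without the experiment as replicate block, 8 members were called higher in 72Q over 25Q, 8 lower in shRNA 1 over the 72Q control, 4 higher and 4 lower in shRNA 2 over the 72Q control, 5 higher in shRNA 1 over shRNA 2 and 8 higher in shRNA 1 over 25Q. Calls over all genes fell as well, from 8628 to 6526 in 72Q over 25Q. They fell from 6999 to 4561 with shRNA 1 and from 6307 to 3621 with shRNA 2 over the 72Q control. In shRNA 1 over shRNA 2 they fell from 8030 to 5504, and in shRNA 1 over 25Q from 8671 to 6499. The calls lost without this block were those of Hspa1b, Hspa2, Hsp90ab1, Dnaja1, Dnaja2, Bag2, Bag3, Cct3, Cct4, Cct5 and Cct8 in 72Q over 25Q, of Hsf1, Hspa2, Hspa12b, Hsph1, Fkbp4, Bag1, Bag2, Cct3 and Cct6a in shRNA 1 and of Hspa8, Hsph1, Dnaja2, Dnajb2, Dnajc7, Bag2, Bag3 and Cct3 in shRNA 2 over the 72Q control. Title numbers, which put 3 of the 4 25Q libraries with libraries of another experiment (correlations over the 4 numbers of -0.218 to 0.260), gave as a block 9 higher in 72Q over 25Q, 5 higher and 4 lower in shRNA 2 over the 72Q control, 6 higher in shRNA 1 over shRNA 2 and 10 higher in shRNA 1 over 25Q. With that block 7184 of all genes were called in 72Q over 25Q and 4472 in shRNA 2 over the 72Q control. Members of few counts (Hspa1a, Hspa12b, Bag3, Hspb8 and Hspb1) are limited by depth.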
